A study of Homo sapiens with 10 samples.

Results

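AP-1 is a family of transcription factors that bind DNA as pairs of basic leucine zipper (bZIP) subunits, and 10 genes of this family and of its bZIP partners were followed here: FOS, FOSB, FOSL1, FOSL2, JUN, JUNB, JUND, ATF3, BATF3 and MAFF. They were taken by symbol from 2 count tables of 28281 gene symbols each, and all 10 were present and passed the filter on low counts in both. The tables hold poly(A) RNA sequencing of A549 and NCI-H1944 (H1944 below), established human lung adenocarcinoma lines, with APE1 intact (WT) or knocked out (KO). APE1 is encoded by APEX1. There were 3 libraries of each genotype for A549 and 2 of each for H1944. A549 was grown in DMEM and H1944 in RPMI1640 with sodium pyruvate, both with fetal bovine serum, and no treatment or time point is named. The labels do not say how the knockout was made, whether a KO group is 1 clone or several, or whether the replicates were grown apart. The p-values therefore reflect no more than the spread among these 10 libraries, part of which may be technical.

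A FOS family protein pairs with a JUN family protein, and JUN proteins can also pair with each other, while FOS proteins cannot. FOS and FOSB are switched on within minutes by serum and growth factors and carry a strong activating domain, which FOSL1 (FRA-1) and FOSL2 (FRA-2) lack. APE1, also called Ref-1, is known as a repair endonuclease and as a redox factor that reduces a cysteine in the DNA-binding region of FOS and JUN, so that the proteins can bind DNA. That reaction acts on protein, whereas the values below are mRNA. The question put to the tables was whether subunit mRNA differed between KO and WT in each line, and whether the balance moved between the FOS type (FOS and FOSB) and the FOSL type (FOSL1 and FOSL2).

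APEX1 itself, the check of the labels, was at 167, 254 and 237 CPM (counts scaled to library size) for A549 WT 1, 2 and 3. The A549 KO libraries 65, 16 and 66 had 62.9, 60.1 and 108 CPM. The H1944 WT libraries had 244 and 243 CPM and the KO libraries 87.0 and 87.6 CPM. Every KO library was below every WT library of its line, with mRNA remaining in all. Library totals ran from 18314224 to 30219850 counts. The 3 A549 KO libraries are known only by the column numbers 65, 16 and 66, which state no genotype. They were taken as KO since it is the one A549 group without named columns. The A549 libraries fall into 2 sets across genotype: WT 1 and KO 65 have 4839 and 5945 counts of RNA28SN4, a 28S ribosomal RNA gene, and the other 4 have 0. The share of ribosomal RNA genes was 0.284% and 0.337% in the first set and 6.45% to 14.2% in the second. A549 results are therefore also given within the sets, where KO 65 is set against WT 1, and each of KO 16 and KO 66 against the mean of WT 2 and WT 3. Lung and epithelial markers summed to between 9900 and 24714 CPM in all libraries, with NKX2-1, a lung lineage factor, at 0 in each H1944 library. Most of that sum came from the keratin genes KRT8 and KRT18, so it says little about the lung genes. KRT8 and KRT18 averaged 10695 and 6940 CPM in A549 WT and 5544 and 4032 CPM in H1944 WT. The lung gene NAPSA averaged 1.06 CPM in A549 WT and 9.11 CPM in H1944 WT, and SFTPA1 was at 0 in every A549 library. Fibroblast, leukocyte and endothelial markers summed to at most 30.1, 56.2 and 2.86 CPM, and the T cell genes CD3D and CD3E were at 0 in every library.

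The promoters of 8 of the 10 genes were found in the RefSeq table of GRCh38.p14. A cyclic AMP response element, the site named for CREB and also bound by JUN and ATF pairs, has the letters TGACGTCA. The first 6 of those letters, TGACGT, or the JUN promoter's variant TGACATCA, occurred on either strand within the 250 bases before the start of FOS, FOSB, FOSL2, JUN, JUND, MAFF and ATF3, which is 7 of the 8. For comparison, TGACGT occurred in 7.1% of all 35116 promoters of that length and TGACATCA in 2.37%. Those shares are per promoter and per motif, while the 7 of 8 counts genes over both motifs, and the 8 genes have 10 windows. The motifs were also chosen with these sequences in view, so the figures are not a like comparison. The 80 bases before the start are shown, 5′ to 3′ on the gene's strand, for the 5 genes whose letters lie between 47 and 67 bases before the start, with those letters in capitals. FOS spans chr14:75278748-75278827, FOSB chr19:45467916-45467995, FOSL2 chr2:28392778-28392857 and MAFF chr22:38201914-38201993, all on the plus strand, and JUN spans chr1:58784048-58784127 on the minus strand.
FOS: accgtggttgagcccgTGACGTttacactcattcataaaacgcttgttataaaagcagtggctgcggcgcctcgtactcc
FOSB: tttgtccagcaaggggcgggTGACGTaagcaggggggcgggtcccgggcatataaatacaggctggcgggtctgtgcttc
FOSL2: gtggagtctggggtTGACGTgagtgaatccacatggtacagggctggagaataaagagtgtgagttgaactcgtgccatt
JUN: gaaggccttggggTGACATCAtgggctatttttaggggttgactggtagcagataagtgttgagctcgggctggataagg
MAFF: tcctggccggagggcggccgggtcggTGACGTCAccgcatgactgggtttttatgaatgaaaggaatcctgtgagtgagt

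The exact letters of the usual AP-1 site, TGANTCA, were in none of the 8 genes' windows (6.57% of all promoters). Variants such as TGACATCA were not counted as AP-1 sites here. The CArG box, the site of serum response factor, was in none of the windows either (1.16%). The windows end 250 bases before the start, and sites farther upstream were not searched. The study's title concerns DNA G-quadruplexes, 4-stranded folds of G-rich DNA. The usual G-quadruplex motif was taken as 4 runs of at least 3 G with 1 to 7 bases between them. Runs that match it occurred on either strand in 2 of the 8 genes, FOSL2 and MAFF. That was 3 of the 10 windows, against 23.5% of all promoters. Those runs are shown with the G runs in capitals. The runs shown lie 188 to 168 bases before the FOSL2 start (chr2:28392670-28392690) and 142 to 94 bases before the first MAFF start (chr22:38201852-38201900), both on the plus strand. A further MAFF match, not shown, lies 59 to 40 bases before the second MAFF start, on the strand opposite to the gene. A match is a description of letters and not evidence of a fold.
FOSL2 G runs: GGGagccGGGGctGGGaGGGG
MAFF G runs: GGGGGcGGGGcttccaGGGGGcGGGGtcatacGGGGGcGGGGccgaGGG

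In H1944, FOSL1, FOSL2, MAFF and JUN mRNA rose in the KO cells and FOS, ATF3 and BATF3 mRNA fell, while JUNB, JUND and FOSB did not pass the test. The 4 rises and 3 falls are calls at an adjusted p under 0.05 by the edgeR quasi-likelihood test over 16626 genes, in which 33.2% of all genes were called higher and 33.9% lower. With 67.1% of genes called either way, the 7 of 10 subunits called (70%) are close to the background. The 2 genotypes did not overlap for 4 genes that were higher and 4 that were lower in KO, against 41.1% and 41.4% of all genes (82.5% either way). The median log2 fold change of the 10 subunits was 0.04, beside -0.01 for all genes. At least 2-fold, 3 subunits rose (FOSL1, FOSL2 and MAFF) and 1 fell (ATF3), against 10.1% and 11.3% of all genes. Fitted with the wider spread of A549, in 1 fit of all 10 libraries, JUN, FOS and BATF3 no longer passed (adjusted p 0.265, 0.642 and 0.341).

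**Figure D1:**
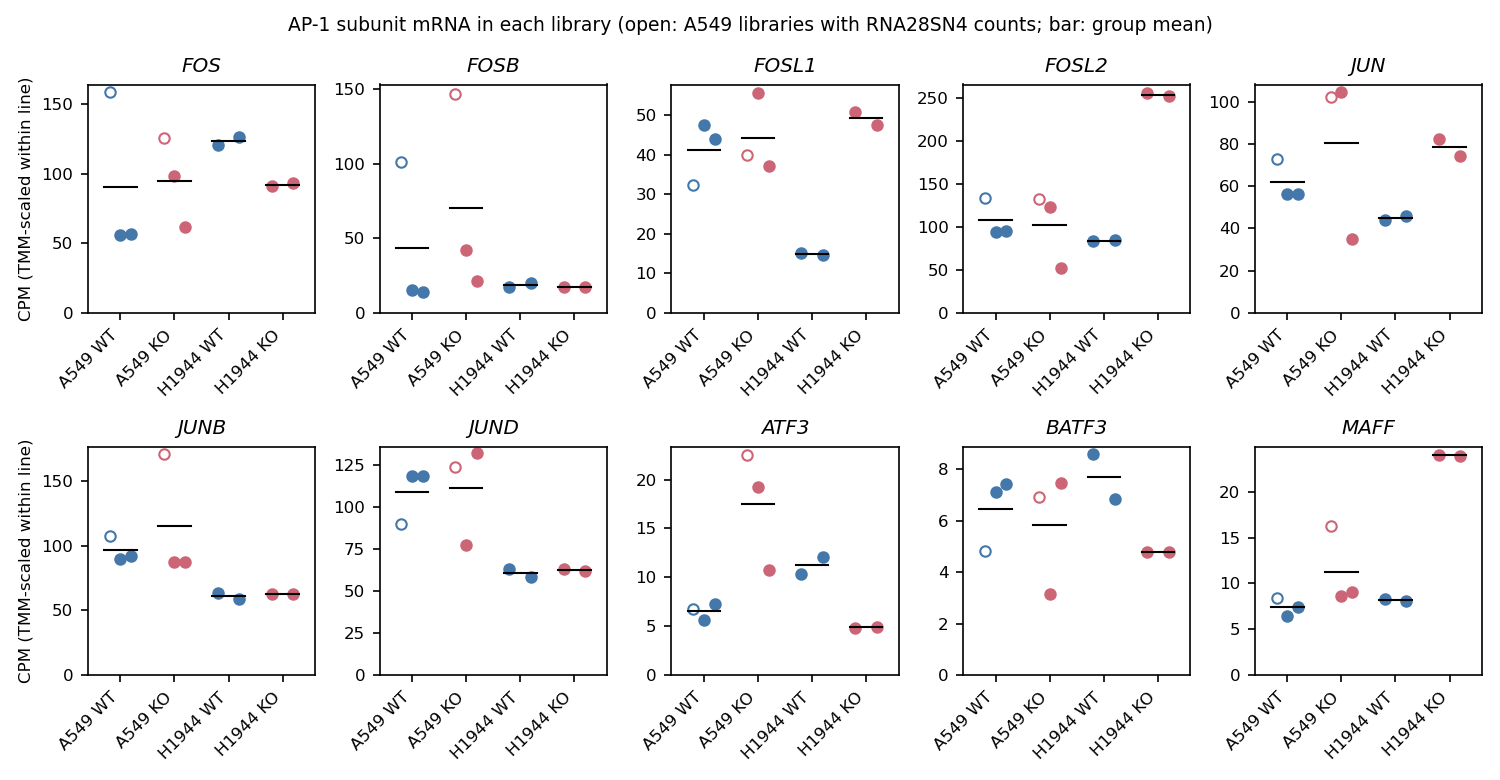
Normalized read counts (CPM, linear axis from 0, scaled by TMM within each line) of the 10 AP-1 genes in each library, with WT in blue, KO in red, black bars for group means and open circles for the 2 A549 libraries with RNA28SN4 counts. FOSL1, FOSL2, JUN and MAFF lie higher in both H1944 KO libraries than in both WT libraries. Among the A549 libraries, FOS and FOSB lie highest in the 2 open points.

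FOSL1 (chromosome 11, 65892049 to 65900545), which codes for FRA-1, measured 15.1 and 14.6 CPM in H1944 WT 1 and 2 and 50.8 and 47.4 CPM in KO 1 and 2. Both KO libraries were above both WT libraries, a 3.30-fold rise (log2 fold change 1.72, SE 0.07, edgeR adjusted p 9.4e-15). FOSL2 (chromosome 2, 28392858 to 28417317), which codes for FRA-2, measured 83.4 and 84.9 CPM in the WT libraries and 256 and 252 CPM in KO. That is a 3.02-fold rise (1.59, SE 0.04, edgeR adjusted p 2.8e-19), and FOSL2 had the most counts of the 10 genes in the KO cells, 7265 and 7518. Both genes of the FOSL type thus rose, with groups that did not overlap.

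FOS (chromosome 14, 75278828 to 75282230), the cellular counterpart of a viral oncogene, measured 120.3 and 126 CPM in the WT libraries and 90.7 and 93.2 CPM in KO. It fell to 0.747 of the WT level (log2 fold change -0.42, SE 0.04, edgeR adjusted p 8.5e-09). FOSB (chromosome 19, 45467996 to 45475179), its close relative, measured 17.4 and 20.02 CPM in the WT libraries and 17.3 and 17.1 CPM in KO. The KO libraries lay just below the WT libraries, and the difference did not pass (log2 fold change -0.12, SE 0.09, edgeR adjusted p 0.266).

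Among the JUN genes only JUN rose. JUN (chromosome 1, 58780791 to 58784047), the main partner of FOS, measured 44.0 and 46.0 CPM in the WT libraries and 82.4 and 74.5 CPM in KO, a 1.74-fold rise with groups apart (log2 fold change 0.80, SE 0.06, edgeR adjusted p 4.7e-11). JUNB (chromosome 19, 12791486 to 12793315), often a weaker activator than JUN, measured 63.7 and 58.5 CPM in the WT libraries and 62.9 CPM in each KO library. JUND (chromosome 19, 18279694 to 18281622), a subunit present in most resting cells, measured 63.5 and 58.7 CPM in the WT libraries and 63.2 and 62.3 CPM in KO. For both the KO values lay inside the WT range, with log2 fold changes of 0.04 (SE 0.05 each) and edgeR adjusted p of 0.518 and 0.555. Of the exonic bases of JUNB, 14.2% are shared with HOOK2 on the opposite strand in GENCODE 29, and since strand use in counting is not stated, a part of its counts may belong to that gene.

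The remaining 3 genes code for partners that lack a strong activating domain of their own. MAFF (chromosome 22, 38201994 to 38216511), a small MAF protein that pairs with NRF2 and with FOS, measured 8.33 and 8.06 CPM in H1944 WT and 24.02 and 23.9 CPM in KO. It rose 2.92-fold (log2 fold change 1.55, SE 0.10, edgeR adjusted p 7.8e-12). ATF3 (chromosome 1, 212565407 to 212620777), a stress-induced repressor and JUN partner, measured 10.4 and 12.1 CPM in the WT libraries and 4.86 and 4.93 CPM in KO. It fell to 0.437 of the WT level (log2 fold change -1.19, SE 0.15, edgeR adjusted p 3.7e-07). BATF3 (chromosome 1, 212686417 to 212699840), a JUN partner best known from dendritic cells, measured 8.59 and 6.82 CPM in the WT libraries and 4.79 and 4.76 CPM in KO (log2 fold change -0.69, SE 0.17, edgeR adjusted p 0.00107). Its neighbour on chromosome 1, ATF3, fell with it, and both rest on few counts, 138 to 253 for ATF3 and 136 to 194 for BATF3 in the H1944 libraries.

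In A549, no AP-1 gene passed the test, and WT and KO libraries overlapped for 8 of the 10. edgeR called 0 of 10 higher and 0 lower, against 0.00633% and 0% of 15806 genes. At an unadjusted p under 0.05 there was 1 of 10, ATF3, near the 5.66% of all genes, and DESeq2 called ATF3 alone while limma-voom called none. WT and KO libraries did not overlap for 2 of the 10, ATF3 and MAFF, both higher in KO, against 6.11% of all genes higher and 4.6% lower. The median log2 fold change of the 10 was 0.18, beside 0.02 for all genes.

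ATF3 measured 6.80, 5.68 and 7.30 CPM in A549 WT 1, 2 and 3 and 22.5, 19.2 and 10.8 CPM in KO 65, 16 and 66. Each KO library lay above each WT library, a log2 fold change of 1.41 (SE 0.31, edgeR adjusted p 0.567; 2-sided exact permutation p 0.1, the smallest that 3 against 3 libraries allow). Within the sets KO 65 gave 1.71, KO 16 gave 1.56 and KO 66 gave 0.74, so all 3 KO libraries were higher there too. DESeq2 gave an adjusted p of 0.0172, and over all alternatives the adjusted p ran from 0.0172 to 1.00. MAFF measured 8.40, 6.43 and 7.43 CPM in the WT libraries and 16.2, 8.59 and 9.06 CPM in KO, a log2 fold change of 0.60 (SE 0.31, edgeR adjusted p 0.948; exact permutation p 0.1). Within the sets MAFF gave 0.94, 0.31 and 0.39, and without KO 65 its log2 fold change was 0.25.

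FOS and FOSB in A549 differed most between the 2 sets of libraries. FOS measured 159, 55.7 and 56.4 CPM in WT 1, 2 and 3 and 125, 98.2 and 61.4 CPM in KO 65, 16 and 66 (log2 fold change 0.07, SE 0.48, edgeR adjusted p 0.995). FOSB measured 101, 15.1 and 13.9 CPM in the WT libraries and 147, 42.3 and 21.5 CPM in KO (log2 fold change 0.70, SE 1.04, edgeR adjusted p 0.995). The 2 libraries with RNA28SN4 counts, WT 1 and KO 65, were the highest of the 6 for both genes. WT 1 lay above the mean of WT 2 and WT 3 by 1.50 on the log2 scale for FOS and by 2.80 on that scale for FOSB. Within the sets FOS gave -0.34 for KO 65, 0.81 for KO 16 and 0.13 for KO 66. FOSB gave 0.54, 1.54 and 0.57, higher in all 3, and without WT 1 its log2 fold change was 2.27, while without KO 65 it was -0.44.

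FOSL1 measured 32.2, 47.4 and 44.01 CPM in A549 WT and 39.9, 55.6 and 37.0 CPM in KO 65, 16 and 66, with overlapping groups (log2 fold change 0.10, SE 0.24, edgeR adjusted p 0.995). FOSL2 measured 134, 94.2 and 95.3 CPM in the WT libraries and 133, 123 and 52.8 CPM in KO (-0.07, SE 0.36, edgeR adjusted p 0.995). Neither gene showed the rise seen in H1944, and KO 66 was the lowest of the 6 libraries for FOSL2. Within the sets FOSL1 gave 0.31, 0.28 and -0.30 and FOSL2 gave -0.01, 0.37 and -0.84.

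JUN was high in KO 65 and KO 16 and lowest in KO 66, at 102, 105 and 34.8 CPM against 73.0, 56.03 and 56.1 CPM in WT. Its log2 fold change in A549 was 0.39 (SE 0.41), and within the sets it was 0.49, 0.90 and -0.69. JUNB was 108, 89.4 and 92.3 CPM in the WT libraries and 171, 87.03 and 87.5 CPM in KO, so its difference of 0.25 (SE 0.30) came from KO 65, and without that library it was -0.15. JUND was 90.1, 119 and 119 CPM in the WT libraries and 124, 77.7 and 132 CPM in KO (0.03, SE 0.25). BATF3 was 4.81, 7.09 and 7.43 CPM in the WT libraries and 6.93, 3.14 and 7.46 CPM in KO (-0.14, SE 0.38). All 4 had an edgeR adjusted p of 0.995. Of the 10 genes, 3 (FOSB, ATF3 and MAFF) were above WT in each KO library within the sets and 0 were below in each, against 17.3% of all genes above and 16.8% below.

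**Figure D2:**
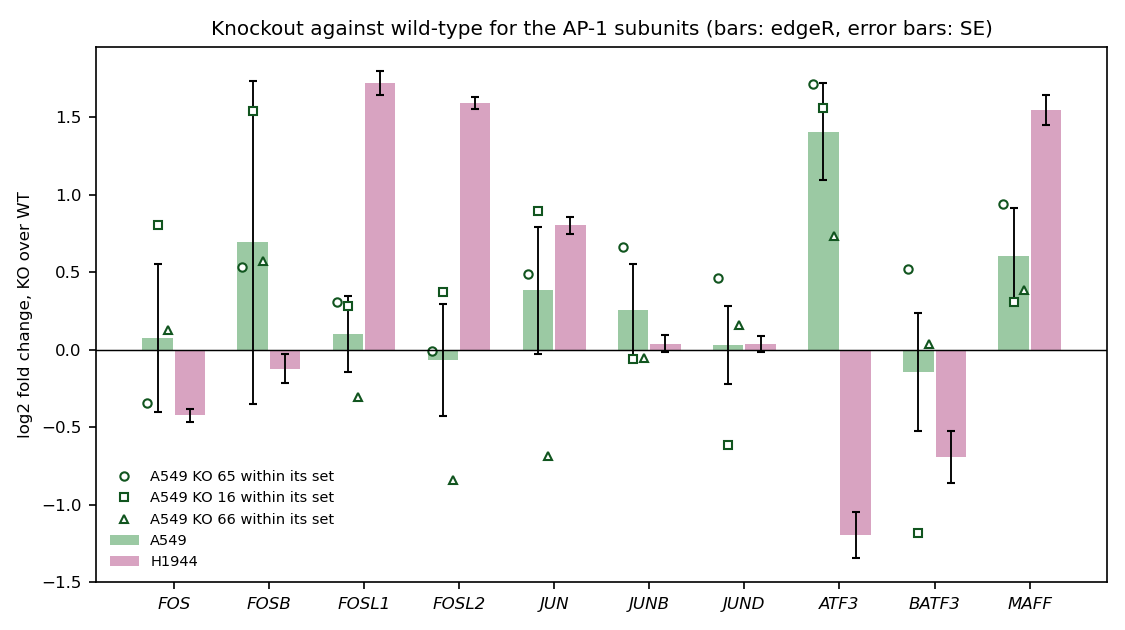
Log2 fold change of KO over WT for the 10 AP-1 genes in A549 (green) and H1944 (pink), as edgeR estimates with standard errors, and for each A549 KO library within its set (open symbols). The pink bars of FOSL1, FOSL2 and MAFF reach 1.72, 1.59 and 1.55, and ATF3 has bars of 1.41 in A549 and -1.19 in H1944.

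The KO changes of the 2 lines were compared in 1 fit of all 10 libraries over 17677 genes, where 4.1% of genes were called with a higher and 2.85% with a lower change in A549 (6.95% either way). Of the 10 AP-1 genes 1 was called in each direction, both at least 2-fold, against 3.99% and 2.66% of all genes. ATF3 had the higher change in A549, by 2.58 on the log2 scale (SE 0.42, edgeR adjusted p 0.00798), with all 3 A549 KO libraries above and both H1944 KO libraries below the WT of their line. FOSL1 had the lower change in A549, by -1.66 (SE 0.32, edgeR adjusted p 0.0175). FOSL2 and MAFF gave -1.68 (SE 0.48) and -0.96 (SE 0.41) and did not pass (edgeR adjusted p 0.0729 and 0.214). The other 6 genes had edgeR adjusted p from 0.626 to 0.986. The ATF3 call was lost without H1944 KO 1 or KO 2 (adjusted p 0.0595 and 0.0574), and the FOSL1 call without any 1 of the 4 H1944 libraries (0.0714 to 0.104).

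The balance between FOS type and FOSL type mRNA turned over in H1944. Counts were divided by exonic length, since FOSL1 is 1.887 kb and FOSL2 7.157 kb long, and the ratio of FOS plus FOSB to FOSL1 plus FOSL2 was taken in each library. It was 2.05 for H1944 WT 1 and 2.17 for WT 2, but 0.497 for KO 1 and 0.528 for KO 2. FOS type mRNA was thus the larger part in both WT libraries and the smaller part in both KO libraries. On the log2 scale the mean ratio was 1.08 ± 0.06 in WT and -0.97 ± 0.06 in KO (SD, n = 2 each), a difference of -2.04. No p is given for this ratio, because it is a score over genes chosen with results known. Most of the shift lies in the denominator, since FOS fell by 0.42 on the log2 scale while FOSL1 and FOSL2 rose by 1.72 and 1.59.

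Expressed as shares of the FOS family mRNA per length in H1944, FOS went from 61.9% and 62.6% in WT to 29.9% and 31.2% in KO. FOSL2 went from 19.4% and 19.1% to 38.1% and 38.2%, and became the largest part. FOSL1 went from 13.4% and 12.5% to 28.7% and 27.3%, a mean rise of 15.1 percentage points that was 5.74 points for counts not divided by length. FOSB held 5.23% and 5.80% in WT and 3.32% and 3.33% in KO. On the JUN side, JUN went from 15.2% and 16.9% of JUN family mRNA to 25.4% and 23.6%, while the mean share of JUNB went from 42.4% to 38.2% and that of JUND from 41.5% to 37.3%. FOS family mRNA as a whole relative to JUN family mRNA moved from a log2 ratio of -0.37 ± 0.10 in WT to 0.04 ± 0.01 in KO (SD, n = 2 each).

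In A549 the same ratio differed most between the library sets. It was 1.88 in WT 1 and 1.64 in KO 65, and 0.520 and 0.543 in WT 2 and WT 3 beside 0.813 in KO 16 and 0.846 in KO 66. The mean log2 ratio was -0.30 ± 1.05 in WT and 0.06 ± 0.57 in KO (SD, n = 3 each), a difference of 0.36 that is smaller than either SD. Within the sets the log2 ratio was lower by -0.20 in KO 65 and higher by 0.61 in KO 16 and 0.67 in KO 66. None of the 3 moved by as much as the H1944 libraries, at -2.08 for KO 1 and -2.00 for KO 2 against the WT mean. The share of FOSL1 in FOS family mRNA was 16.6%, 43.2% and 41.2% for A549 WT 1, 2 and 3, beside 20.2%, 34.9% and 39.4% for KO 65, 16 and 66. The share of JUN in JUN family mRNA ran from 12.2% to 16.1% in WT and was 15.3%, 24.8% and 7.63% in KO 65, 16 and 66.

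**Figure D3:**
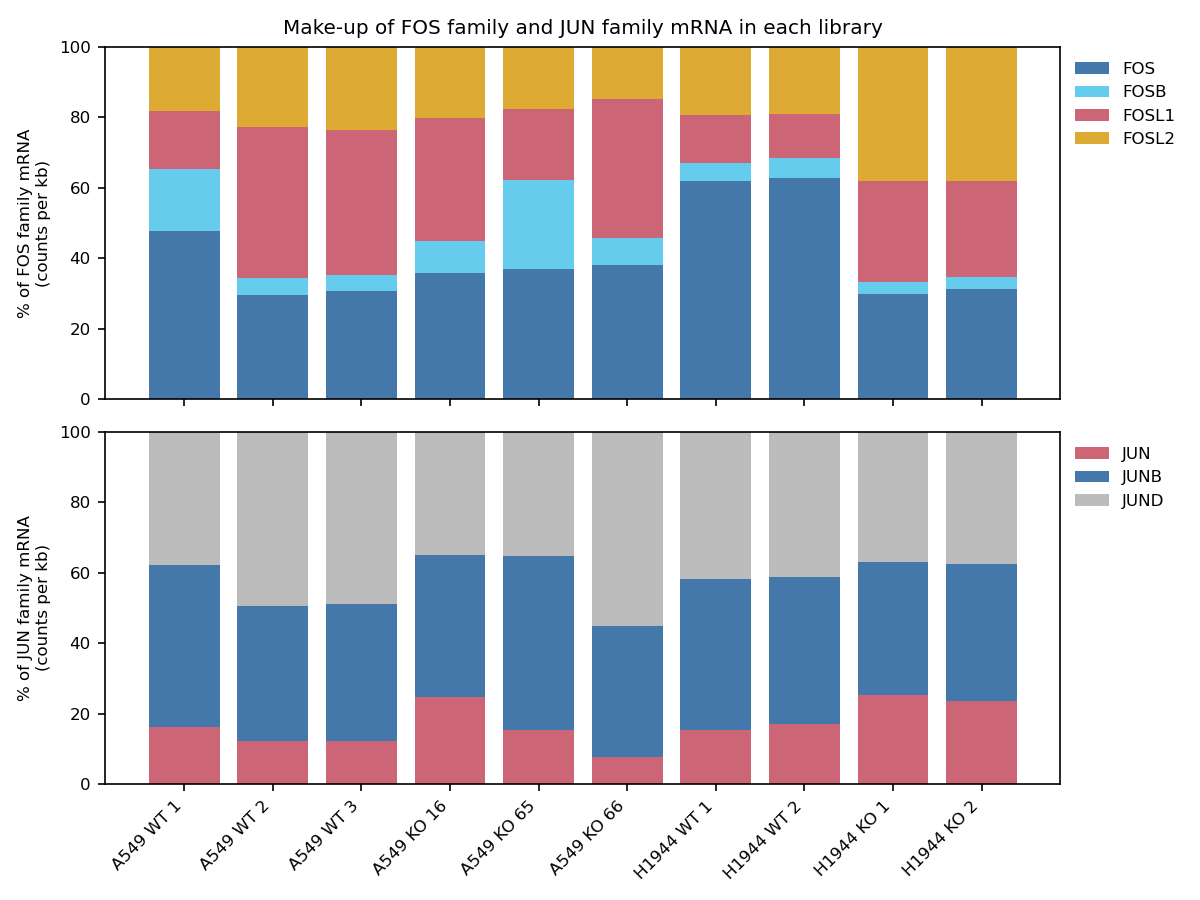
Share of each gene in FOS family mRNA (upper panel) and JUN family mRNA (lower panel) in each library, in percent of counts per kilobase. FOS (dark blue) fills 61.9% and 62.6% of the upper bars of H1944 WT and 29.9% and 31.2% of those of H1944 KO, and FOSB (light blue) is widest in A549 WT 1 and KO 65 at 17.7% and 25.2%.

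The order of the genes by level per length, in CPM per kilobase on the scale of all 10 libraries, changed most in H1944. In H1944 WT it ran FOS (37.3 ± 1.26), JUNB (32.9 ± 1.98), JUND (32.2 ± 1.78), JUN (12.5 ± 0.389), FOSL2 (11.5 ± 0.143), FOSL1 (7.74 ± 0.187), FOSB (3.31 ± 0.327), BATF3 (2.79 ± 0.454), ATF3 (2.72 ± 0.292) and MAFF (1.43 ± 0.0332; SD, n = 2 each). Libraries of neighbours in that order overlapped for JUNB and JUND, FOSB and BATF3, and BATF3 and ATF3, and were apart for the others. In H1944 KO the order was FOSL2 (34.8 ± 0.418), JUNB (33.9 ± 0.0482), JUND (33.04 ± 0.403), FOS (27.9 ± 0.485), FOSL1 (25.6 ± 1.29), JUN (21.7, from 20.6 to 22.9), MAFF (4.18 ± 0.0241), FOSB (3.04 ± 0.0370), BATF3 (1.73 ± 0.00981) and ATF3 (1.19 ± 0.0101), with no overlap between neighbours. FOSL2 moved from the fifth to the first place and MAFF from the last to the seventh.

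In A549 the order was alike in both genotypes, and most neighbours overlapped. JUND (60.05 ± 10.7) and JUNB (54.04 ± 3.80) led in WT, above FOS (28.1 ± 17.5), FOSL1 (22.4 ± 4.93), JUN (17.7 ± 2.22), FOSL2 (15.3 ± 2.69) and FOSB (7.78 ± 8.78), with BATF3, ATF3 and MAFF at 2.44, 1.67 and 1.35 CPM per kilobase (SD, n = 3). In KO JUNB (63.7 ± 27.9) and JUND (60.2 ± 17.02) led again, followed by FOS (29.4 ± 10.2), FOSL1 (23.4 ± 4.73), JUN (22.8 ± 11.1), FOSL2 (14.4 ± 6.10), FOSB (12.8 ± 12.4), ATF3 (4.34 ± 1.51), BATF3 (2.17 ± 0.908) and MAFF (2.03 ± 0.806). In both genotypes the only pair of neighbours whose libraries were apart was the lower of the 2 leading JUN genes and FOS.

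Before knockout, the lines differed in FOSL1 and JUND. In the fit of all 10 libraries, where 21.2% of genes were higher and 22.2% lower in A549 WT than in H1944 WT (43.5% either way), FOSL1 was higher in A549 WT by 1.53 on the log2 scale (SE 0.24, edgeR adjusted p 0.00119) and JUND by 0.90 (SE 0.26, 0.0210). FOSL1 was at 24.6 and 26.5 CPM per kilobase in the H1944 KO libraries, beside 16.8 to 26.1 in the 3 A549 WT libraries. FOS was -0.41 (SE 0.44, edgeR adjusted p 0.475), but without A549 WT 1 it was -1.07 with an adjusted p of 0.0124, lower in A549. JUND did not pass without A549 WT 2 or WT 3 or without H1944 WT 1 or WT 2 (adjusted p 0.0598 to 0.131). The lines also differ in medium and in the table their libraries come from, and these cannot be told apart from line.

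Around the AP-1 genes in H1944, genes known as AP-1 targets were mostly higher in KO. Of the 40 listed, 33 could be tested, and 28 rose (21 at least 2-fold) and 4 fell, against 33.2% of all genes higher and 33.9% lower. The median log2 fold change of the 33 was 1.33, beside -0.01 for all genes. The list was chosen with earlier results in view. MMP1, IL1A and IL1B, counted among the rises, averaged 0.11, 0.32 and 0.20 CPM in WT. At that level they passed the low-count filter only because of the KO libraries, so they could only be called higher. CCND1, the cyclin that drives entry into S phase, went up from 133 ± 1.07 to 565 ± 2.93 CPM (SD, with n = 2 in each group; a log2 fold change of 2.08, edgeR adjusted p 3.8e-22). The hyaluronan receptor CD44 rose by 1.70, TIMP1, an inhibitor of metalloproteinases, by 1.75 and the receptor kinase AXL by 1.69 on the log2 scale. AREG, an EGF receptor ligand (-1.45), HMGA2, a chromatin protein (-0.83), SPP1, or osteopontin (-0.36), and UPP1, a uridine phosphorylase (-0.15), were the 4 that fell, and S100A2 (0.34) did not pass; these 5 were named after their values were seen. In the same libraries the epithelial genes CDH1 and EPCAM had log2 fold changes of -4.72 and -6.21 while KRT8 and KRT18 rose by 0.81 and 0.98. Over the list of 11 lung and epithelial markers, 2 of 7 tested rose and 4 fell. KRT19, counted among the falls, averaged 1.38 CPM in WT and 0.07 CPM in KO. It passed the low-count filter only because of the WT libraries, so it could only be called lower. The summed level of the 11 markers, scaled to library totals without TMM, was 9900 to 10149 CPM in the WT libraries and 17276 to 17557 CPM in KO. Nearly all of that sum came from KRT8 and KRT18, so it says little about the other markers. In A549, EPCAM measured 22.8 CPM in the WT libraries and 64.2 CPM in KO and did not pass (log2 fold change 1.50, edgeR adjusted p 0.649). The part of these changes in the AP-1 results was not tested.

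Other immediate early genes, the group that serum and stress induce along with FOS, moved both ways in H1944, with 16 of 26 tested higher, 7 lower and a median of 0.39. For this and the lists that follow, the shares of all genes called are again 33.2% higher and 33.9% lower, and the median of all genes is -0.01. In those lists DUSP2 and MAFA, at 0.20 and 0.35 CPM in WT, also passed the filter only because of the KO libraries. PHLDA1 rose from 29.7 ± 1.76 to 147 ± 1.01 CPM and RHOB, a small GTPase, from 13.2 ± 2.51 to 76.0 ± 4.13 CPM. CCN1, a matrix protein, rose by 1.38 on the log2 scale, and SGK1, a kinase, fell by 1.41. EGR1 and NR4A1 had log2 fold changes of -0.44 and -0.37 and passed as lower, while IER2 and ZFP36 rose by 0.30 and 0.58. EGR1, NR4A1, IER2 and ZFP36 were named after their values were seen. MAP kinase phosphatases and feedback inhibitors, which are themselves induced by ERK signalling and dampen it, were higher for 11 of 17 and lower for 4, with a median of 0.68. DUSP6 rose from 22.4 ± 1.04 to 59.2 ± 0.902 CPM (log2 fold change 1.40), and DUSP1, DUSP5 and DUSP4 rose by 0.83, 0.70 and 0.65.

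Of the upstream kinases and the factors that drive FOS transcription, 10 of 33 were higher and 15 lower in H1944, with a median of -0.07, beside 33.2% and 33.9% of all genes. SRF, serum response factor, rose by 0.73 and ELK3, one of its cofactors, by 0.66, while MAP3K1, a kinase above JNK, fell by 1.13. MEF2C, a factor that acts on the JUN promoter, fell from 45.1 ± 3.10 to 1.71 ± 0.378 CPM. Of other bZIP partners, 9 of 20 were higher and 7 lower, with a median of 0.10: BATF2 rose by 1.58 and JDP2, a repressing JUN partner, by 1.13, and BACH1 and MAFK, partners within the NRF2 network, had -0.74 and -0.54 and passed as lower. Of the redox cofactors, 6 of 13 were higher and 6 lower, APEX1 among the latter. NQO1, an NRF2 target, rose from 1368 ± 41.3 to 2893 ± 5.96 CPM, SESN2 rose by 1.38 and PRDX2, a peroxiredoxin, fell by 0.99. Genes that act in the turnover of JUN and FOS proteins were higher for 3 of 15 and lower for 4, none by 2-fold; CUL4A and USP28 rose by 0.30 and 0.47, and COPS5 and SKP2 passed as lower with -0.38 and -0.34.

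None of these lists had a gene that passed in A549. APEX1 itself, among the redox cofactors, did not pass there, at a log2 fold change of -1.51 with groups apart (edgeR adjusted p 0.521). A change of that size could thus go uncalled in A549. Medians there were 0.06 for AP-1 targets (31 tested), 0.08 for immediate early genes (28), 0.33 for phosphatases and feedback inhibitors (16), 0.04 for upstream kinases (32), 0.15 for other bZIP partners (19), -0.22 for redox cofactors (12) and 0.04 for turnover genes (14), beside 0.02 for all genes. HMGA2 gave 1.28 in A549 (edgeR adjusted p 0.637; 1.32, 1.66 and 0.68 within the sets), where in H1944 it fell. MYC measured 177 ± 2.23 CPM for WT and 123 ± 2.71 CPM for KO (SD, n = 3 each), with the groups apart and -0.50, -0.53 and -0.53 within the sets (edgeR adjusted p 0.673), and in H1944 MYC rose by 0.45. The change in A549 minus that in H1944 was 2.09 for HMGA2 (edgeR adjusted p 0.0282) and -0.99 for MYC (0.0103).

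**Figure D4:**
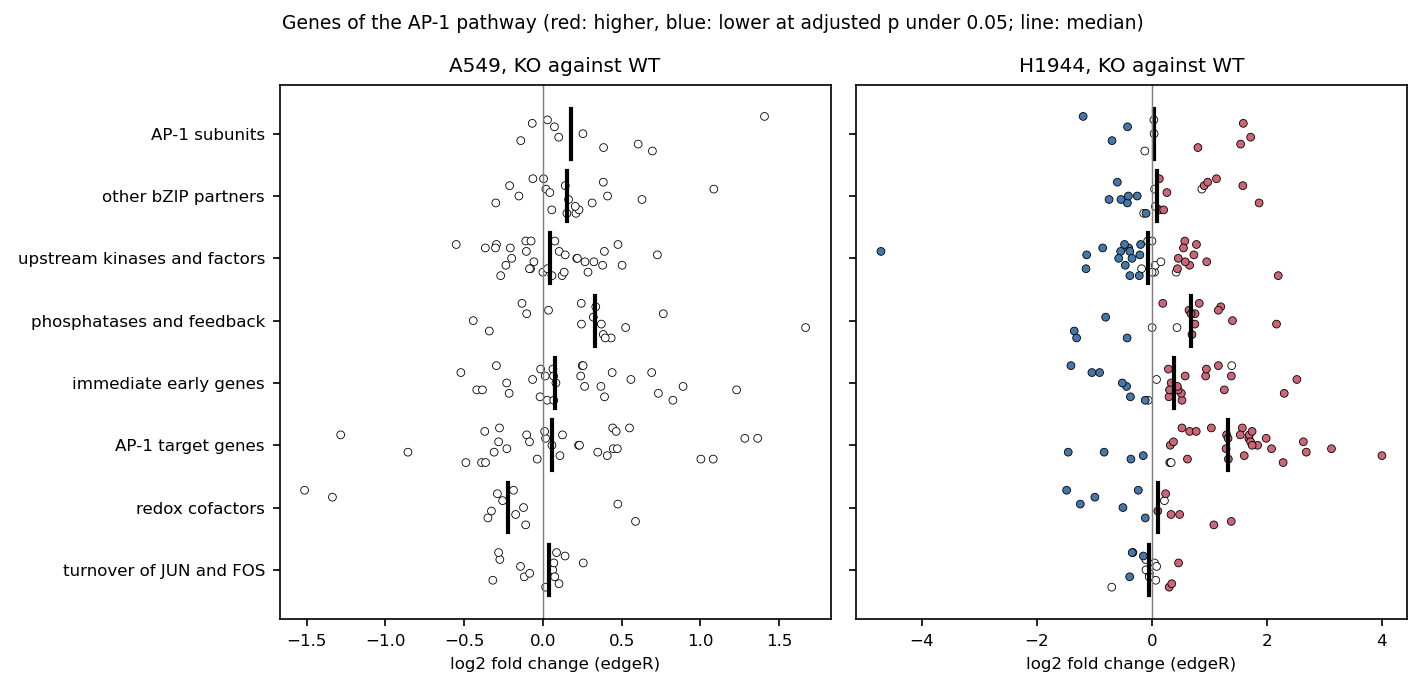
Log2 fold change of KO over WT (edgeR) for each tested gene of the AP-1 subunits and of 7 lists of related genes, with A549 on the left and H1944 on the right, on separate horizontal scales. Red points passed as higher and blue as lower at an adjusted p under 0.05, white points did not pass, and the black line is the list's median, which is 1.33 for AP-1 targets in H1944 and 0.06 in A549.

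The genes whose pattern over the 10 libraries lay nearest to FOSL1 and FOS were sought among 14975 others, by the root mean square difference of log2 CPM relative to the WT mean of the line. The KO libraries were part of that search, so the changes given below resemble those of FOSL1 and FOS by selection. Nearest to FOSL1 were EPHA2, an ephrin receptor (0.132), IL18, a cytokine (0.167), and SLC12A4, a potassium chloride cotransporter (0.177). EPHA2, IL18 and SLC12A4 rose in H1944 by 1.88, 1.63 and 1.61 and had 0.11, -0.07 and 0.15 in A549. Nearest to FOS were UBN2 (0.0883), SLC7A11, the cystine transporter (0.0971), and KLHL15 (0.102). In H1944 the log2 fold changes of UBN2, SLC7A11 and KLHL15 were -0.34, -0.42 and -0.50, and all 3 passed as lower. All 3 were high in A549 WT 1, by 0.91, 1.00 and 0.87 above the A549 WT mean, beside 1.00 for FOS.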

How the data were processed

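The authors deposited raw counts per gene symbol, 1 table per line, with no normalization. Per the submitters' processing notes, the tools were Trim Galore 0.5.0, HISAT2 2.1.0, featureCounts 1.6.4 and DESeq2 with the hg38 build. Annotation, strand and the handling of reads with several alignments were not given in the sources used here. Libraries were poly(A) selected, per the labels' protocols.

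From the counts, genes were kept by filterByExpr (minimum count 10), scaled by TMM and tested within each line by edgeR 4.0.16 (quasi-likelihood, robust) under R 4.3.3. The difference between lines and the WT baseline came from 1 fit of 4 groups. P-values were adjusted by Benjamini-Hochberg over all genes tested, with a threshold of 0.05. SE is the size of the log2 fold change divided by √F, an approximation. CPM are TMM-scaled within a line, except the CPM per kilobase and the marker sums. CPM per kilobase are TMM-scaled over all 10 libraries, and the marker sums are scaled to library totals. The log2 CPM for within-set values have a prior count of 2. Exonic lengths are unions of GENCODE 29 exons, gene positions are RefSeq's on GRCh38.p14, and the annotation used for counting may differ. DESeq2 1.42.0 and limma-voom (limma 3.58.1) were alternatives. Totals of 18314224 to 30219850 counts put 3 counts, the limit that a count of 0 allows, at 0.0993 to 0.164 CPM, for counting error only. Libraries of 1 group differed by a chi-square of at least 1.90 per gene (A549 WT 2 and WT 3), above sampling noise, and were kept apart. It was 2.95 for H1944 KO and 3.37 for H1944 WT. For A549 KO 16 and KO 66 it was 135, and for A549 pairs across the sets 237 to 273. The spread between libraries that edgeR estimated (biological coefficient of variation) was 39.0% in A549 and 4.74% in H1944. The H1944 p-values rest on that smaller spread. The fits were tested on simulated data. No per-sample column was left out.

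The genes, lists and promoter motifs were chosen with earlier results of these data, or the sequences, in view. The naming rule takes the AP-1 genes, APEX1, up to 4 genes in H1944 and 2 in A549 with the smallest adjusted p of each of 7 lists, and the 3 genes nearest to FOS and FOSL1; some that it names are not used.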

Additional observations from a re-analysis of the deposited data

Results flagged for a closer look

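The KO change differed between the lines, by a test of the difference in 1 fit of all 10 libraries, for 2 of the 10 AP-1 genes, against 6.95% of all genes. ATF3 was higher in each A549 KO library and lower in each H1944 KO library than in the WT of the line, and its change in A549 minus that in H1944 was 2.58 on the log2 scale (edgeR adjusted p 0.00798). FOSL1 rose in H1944 and overlapped between genotypes in A549, a difference of -1.66 (edgeR adjusted p 0.0175). The ATF3 call was lost without H1944 KO 1 or KO 2 (adjusted p 0.0595 and 0.0574) and the FOSL1 call without any 1 of the 4 H1944 libraries (0.0714 to 0.104).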

How the results depend on the processing

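In H1944 the 10 AP-1 genes had 10 alternatives each. No called gene changed direction in any of them, and FOSL1, FOSL2, MAFF and ATF3 passed in all. JUN, FOS and BATF3 failed only in 1 fit of all 10 libraries, where 1 of the genes was lower and 1177 and 1345 of all genes were higher and lower. A replicate block on the H1944 numbers left 4 AP-1 genes higher and 3 lower, with 5568 and 5660 of all genes, and changed no call of theirs. The labels do not say that the numbers pair cultures, and the WT 1 minus WT 2 and KO 1 minus KO 2 differences had a correlation of 0.0128 over 16626 genes. No paired analysis was possible because of the numbers in A549, where WT and KO share none. The FOS to FOSL log2 ratio difference in H1944 was -2.14 for FOS over FOSL1 alone. Without division by length the FOSL1 share rose by 5.74 and the JUN share by 11.5 percentage points in place of 15.1 and 8.42. In A549 the difference in the ratio ran from 0.03 to 0.97 with 1 library left out.

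In A549, where edgeR called 1 gene higher and 0 lower, DESeq2 called 81 and 44, of which 1 is an AP-1 gene. The count higher was 2 without the filter, 10 in the fit of all 10 libraries (6 lower), 0 in the larger set alone and 0 without any 1 library, and 1 was lower with the set as a term. Uncalled AP-1 genes changed sign in A549 in 19 of 130 values. With 1 library left out, the lowest and highest log2 values were -0.18 and 0.76 for FOS, -0.44 and 2.27 for FOSB, -0.10 and 0.21 for FOSL1, -0.30 and 0.24 for FOSL2, -0.15 and 0.42 for JUNB, -0.13 and 0.23 for JUND, and -0.37 and 0.16 for BATF3. In the larger set alone FOSL1 was -0.031, JUNB -0.11 and JUND -0.23, and JUND was -0.0065 by DESeq2, -0.0065 with RLE size factors and -0.0023 without the filter. In H1944 JUNB ran from -0.019 to 0.10 and JUND from -0.018 to 0.092 with 1 library left out.

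For the difference between lines, the counts were 725 higher and 503 lower, 1262 and 1056 by DESeq2 (2 AP-1 genes lower), 1520 and 1239 with the set as a term (3 AP-1 genes lower), and from 249 to 1606 and from 133 to 1286 with 1 library left out (0 to 1 AP-1 genes higher, 0 to 2 lower), with the most in each direction without A549 WT 1. FOSL2 passed by DESeq2 (adjusted p 0.0099), with the set as a term (0.0215) and without A549 KO 66 (0.0129), and MAFF with the set as a term (0.0391) and without A549 KO 65 (0.0205). FOSB ran from -0.34 to 2.36 there, JUNB from -0.22 to 0.38 and JUND from -0.18 to 0.18. For the WT baseline, 1739 to 4674 genes were higher and 2399 to 5066 lower with 1 library left out (1 to 3 AP-1 genes higher, 0 to 1 lower), fewest without H1944 WT 2 and most without A549 WT 1, and FOSB ran from -0.31 to 1.65. With the A549 WT libraries at 0 RNA28SN4 alone, which leaves out WT 1, 1 AP-1 gene was lower and FOSB was -0.31. The causes of these moves were not tested. With 2 or 3 libraries a group, a change that did not pass is not shown to be absent.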
